A study of Mus musculus with 8 samples.

Results

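Cish and Socs1 to Socs7 form the family of suppressors of cytokine signaling, and all 8 genes were found by name on the arrays, out of 29924 gene names. The main probe of each gene was well above background on all 8 arrays and not saturated on any. All 8 were therefore among the 15767 genes that entered the tests. CD4 T cells were sorted from pooled pLN of B6.Cg-Foxp3<tm1Mal> mice, in which EGFP reports Foxp3 expression, that had received KLH mixed with alum under the skin. By the gates of the study, the sort yielded naïve T cells (GFP-PD1loGL7-), TFH cells (GFP-PD1hiGL7+), Treg cells (GFP+PD1loGL7-), and TFR cells (GFP+PD1hiGL7+/-). For every cell type, 1 array is from d12 and 1 from d25 p.i. All groups share strain, reporter allele, and immunization, and the labels give a mixed sex, an age of 8 to 14 weeks, 25 ng of RNA per array, and 8 to 15 mice in a pool. All cells were first gated as DAPI-, B220-, and CD4+, which leaves out dead cells and B220+ B cells, and the methods of the study give naïve T and Treg cells as PD1- rather than PD1lo. The naïve T cells also come from immunized mice.

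Cytokines such as IL2, IL4, IL6, IL7, IL21, and interferons bind receptors that carry JAK kinases, and these phosphorylate STAT transcription factors. STATs in turn induce genes of the Cish and Socs family, whose products shut the same pathway down again. All members combine an SH2 domain, which docks to phosphotyrosine, with a SOCS box that recruits Elongin B, Elongin C, and Cullin 5 to mark bound proteins for degradation. CIS and SOCS2, encoded by Cish and Socs2, are classical products of STAT5 activity. SOCS1 and SOCS3 can in addition block JAK kinases directly, SOCS1 after interferon and common γ chain cytokines and SOCS3 mainly at receptors that contain gp130. SOCS4 and SOCS5 are mostly linked to EGF receptor turnover, and SOCS6 and SOCS7 to receptor tyrosine kinase and insulin signaling. In T cells, IL2 sustains Treg cells and opposes TFH differentiation, so that its feedback genes are of interest in cells that share the follicular program but differ in Foxp3.

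Levels are background-corrected and normalized probe intensities in relative units (RU), with a floor of 20. They can be compared between arrays for 1 probe, but not between genes. Differences are on the log2 scale with the SE of a model over all 8 arrays, in which a cell type has n = 2 arrays, 1 from each day. A gene was called at an adjusted p below 0.05 after Benjamini-Hochberg correction over all genes tested. Within a day there are no replicates of a cell type. The model also has a term for the day, which takes out the shift common to all cell types. The spread is what remains between pools of different days after that shift. In such pools, more mRNA per cell and more cells expressing the gene cannot be told apart. All d12 arrays share 1 slide, d25 naïve T and TFH cells another, and d25 Treg and TFR cells the last of 3 slides.

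The sorted cells carried the defining transcripts of their labels. Foxp3 was between 37236 and 49350 RU in Treg and TFR cells and between 65.4 and 358 RU in naïve T and TFH cells. Cxcr5, the receptor that guides cells to the follicle, was between 35388 and 237415 RU in TFH and TFR cells and between 1401 and 4387 RU in naïve T and Treg cells. Of 39429 probes, 18266 to 19869 per array were well above background. Markers of other cells were present but uneven. Summed levels of 7 B cell genes ranged from 5932 to 10265 RU on 7 arrays and reached 17676 RU in TFH cells at d25, with Ms4a1 at 2740 RU there and Pax5 not well above background on any array, although the gate left out B220+ cells. Summed levels of 5 CD8 T and NK cell genes were 56352 and 56499 RU in TFR cells against 11170 to 19472 RU elsewhere, mostly from Nkg7, with Ncr1 not well above background on any array. Summed levels of 7 myeloid, 5 antibody-secreting, and 3 erythroid cell genes ranged from 48382 to 65014, 20019 to 47393, and 6911 to 19246 RU. The myeloid sum came mostly from Cst3 and Itgam, and the antibody-secreting sum mostly from Xbp1. Of the same lists, Adgre1 and Tnfrsf17 were not well above background on any array. At both days, the antibody-secreting sum was higher and the erythroid sum lower in TFH than in naïve T cells, and their part in the results was not tested. Jchain of the antibody-secreting list was instead lower in TFH than in naïve T cells at d12 (3155 and 7471 RU).

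Of the 8 members, 4 (Cish, Socs1, Socs3, and Socs4) have an entry in the RefSeq promoter table of build GRCm38.p6. Socs2, Socs5, Socs6, and Socs7 have none, so that Cish could not be compared with Socs2, the member with the most similar profile. The 250 bases before the transcription start were searched for TTCNNNGAA, the palindromic core bound by most STATs, and for TTCNNNNGAA, the wider spacing preferred by STAT6. Both patterns read the same on either strand and cannot match at the same start. Those of Cish, the member with the lowest p over the cell types, and Socs3, the member with the largest mean difference between days, are shown 5′ to 3′ with matches in capitals. The Cish window lies at chr9:107296409-107296658 on the plus strand and the Socs3 window at chr11:117969367-117969616 on the minus strand.
Cish: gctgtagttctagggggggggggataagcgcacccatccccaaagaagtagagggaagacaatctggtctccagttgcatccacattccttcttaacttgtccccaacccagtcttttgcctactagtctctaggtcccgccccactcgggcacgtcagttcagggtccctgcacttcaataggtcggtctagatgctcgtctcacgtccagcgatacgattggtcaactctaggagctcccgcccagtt
Socs3: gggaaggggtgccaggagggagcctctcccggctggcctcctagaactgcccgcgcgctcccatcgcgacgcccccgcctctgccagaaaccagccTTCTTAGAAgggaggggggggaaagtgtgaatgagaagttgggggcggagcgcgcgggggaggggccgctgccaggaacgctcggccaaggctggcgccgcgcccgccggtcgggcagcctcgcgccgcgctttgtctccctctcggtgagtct
The Socs3 window holds a single TTCNNNGAA match, TTCTTAGAA, which starts 154 bases before the transcription start. Neither pattern was found in the windows of Cish, Socs1, or Socs4, which says only that these letters are absent from these 250 bases. Of all 32851 windows of the table, 7.02% hold TTCNNNGAA and 5.85% hold TTCNNNNGAA.

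Cish had the lowest adjusted p of the members in the moderated F test over the 4 cell types (0.00016). Its transcript encodes CIS, which binds activated cytokine receptors and competes with STAT5. The probe lies at chr9:107204196-107204255 in build NCBI37, the build of all probe positions given here. At d12, the Cish level was 2283 RU in naïve T, 686 RU in TFH, 31464 RU in Treg, and 26718 RU in TFR cells. At d25, it was 3299 RU in naïve T, 723 RU in TFH, 34584 RU in Treg, and 30239 RU in TFR cells. Treg and TFR cells were thus high at both days, naïve T cells intermediate, and TFH cells lowest, with no overlap between these 3 tiers.

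**Figure D1:**
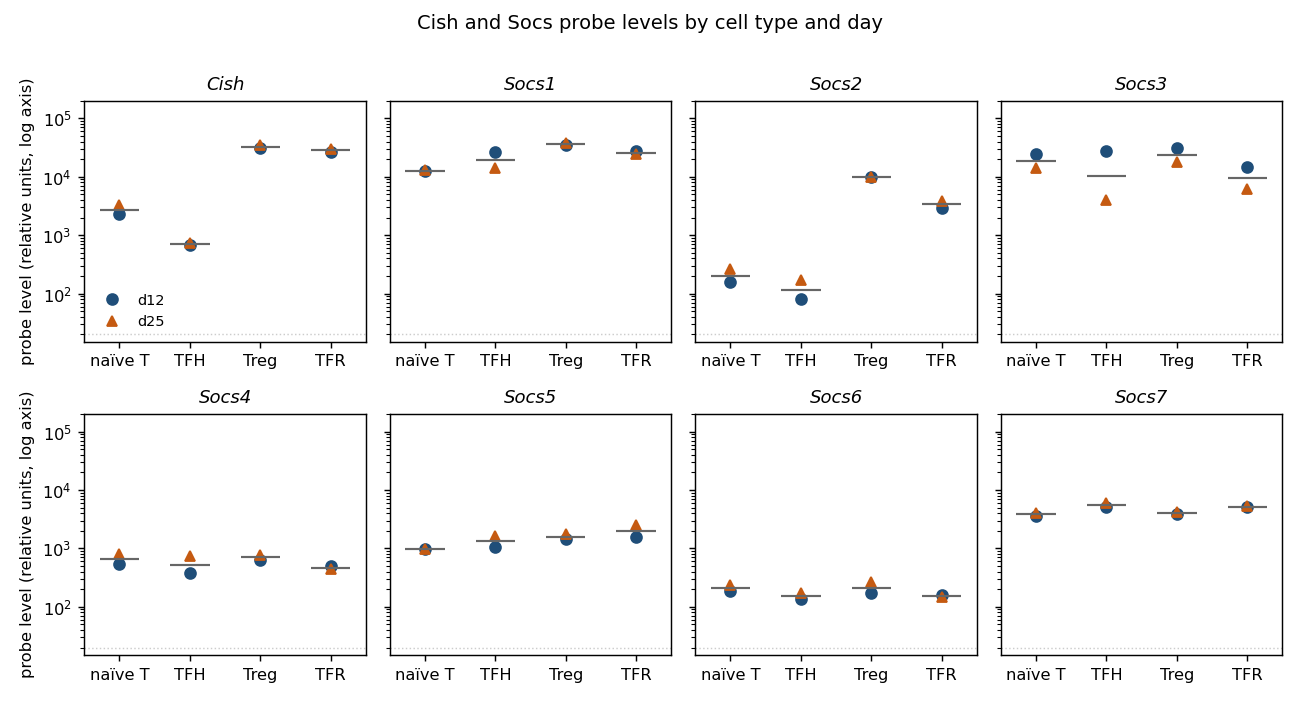
Probe level of each Cish and Socs gene in RU (log axis) by cell type. Circles are the d12 array, triangles the d25 array, gray bars their geometric mean, and the dotted line the floor of 20. Cish and Socs2 are high in Treg and TFR cells at both days (Cish 26718 to 34584 RU), whereas Socs3 is lower at d25 than at d12 in every cell type.

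From naïve T to TFH cells, Cish fell by 1.96 ± 0.14 (SE) on the log2 scale, 3.89-fold (adjusted p = 0.000676). Cish and Socs7 were the 2 members called among 8, where 46.5% of all genes tested were called in this comparison. From Treg to TFR cells, the Cish difference was -0.21 ± 0.14 with a 95% interval from -0.57 to 0.14 (adjusted p = 0.266). Here 2 of 8 members, Socs2 and Socs7, were called against 39.6% of all genes. Between the follicular cells, Cish was 40.3-fold higher in TFR than in TFH cells (5.33 ± 0.14, adjusted p = 0.000438), and 2 of 8 members were called, both higher, against 22.2% of all genes in either direction and 11.7% higher. Between the progenitors, it was 12.0-fold higher in Treg than in naïve T cells (3.59 ± 0.14, adjusted p = 0.000966), and 3 of 8 members were called, all higher, against 9.89% of all genes in either direction and 5.92% higher. These 3 calls of Cish held under all 18 alternative settings that were run.

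The differences from progenitor to follicular cells, called changes here, were also compared directly. They are differences between separately sorted pools. TFH cells were sorted as GL7+ and TFR cells as GL7+/-, which holds for TFR against TFH cells as well. For Cish, the Treg to TFR change (-0.21) minus the naïve T to TFH change (-1.96) was 1.75 ± 0.19 on the log2 scale (adjusted p = 0.0129). The value was positive at both days, that is, Cish fell less from Treg to TFR than from naïve T to TFH cells. Cish was the only member called in this comparison, where 8.56% of all genes were called. The call was lost when any Treg or TFR array was left out. The value was then 1.81 without Treg at d12 (adjusted p = 0.0664), 1.68 without Treg at d25 (0.0688), 1.71 without TFR at d12 (0.0841), and 1.78 without TFR at d25 (0.0731). It was also lost without the filter on dim probes (adjusted p = 0.0724). Socs1 had the largest opposite value, -1.08 ± 0.37 (adjusted p = 0.156), which passed the threshold without TFH at d25 (-1.51, adjusted p = 0.0322). Socs2 gave -0.77 (adjusted p = 0.289) and was called with normexp background correction (-1.21, adjusted p = 0.00790).

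Socs2 had the widest range of the family. SOCS2 is best known as a brake on growth hormone signaling and is likewise induced through STAT5. At d12, the Socs2 level was 159 RU in naïve T, 79.6 RU in TFH, 9963 RU in Treg, and 2912 RU in TFR cells (chr10:94875187-94875246). At d25, it was 260 RU in naïve T, 172 RU in TFH, 10030 RU in Treg, and 3897 RU in TFR cells. Every Foxp3+ array was thus above every Foxp3- array, and within the Foxp3+ cells both Treg arrays were above both TFR arrays.

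Socs2 fell 2.97-fold from Treg to TFR cells (-1.57 ± 0.27, adjusted p = 0.0114), the step at which Cish was not called. Without single arrays of these cells, the value was -1.20 without Treg at d12 (adjusted p = 0.0544), -1.66 without TFR at d12 (0.0693), and -1.47 without TFR at d25 (0.0838), so that the call was lost in these 3 cases, as it was without the filter on dim probes (adjusted p = 0.0703). The CD8 T and NK cell sum moved with this comparison (11303 and 13580 RU in Treg, 56352 and 56499 RU in TFR cells), and its part in the result was not tested. Within this list, Nkg7 (8914 and 7037 RU in Treg, 53275 and 53615 RU in TFR cells) and Klrb1c rose, whereas Cd8a (1138 and 1278 RU, 496 and 576 RU) and Cd8b1 (3432 and 2933 RU, 1740 and 1536 RU) fell. The sum also differed between TFR and TFH cells (11170 and 19472 RU in TFH cells), with Nkg7 higher and Klrb1c and Cd8a lower in TFR cells. Its part in the TFR against TFH results of Cish and Socs2 was not tested. In TFR cells, Socs2 was nevertheless 28.8-fold higher than in TFH cells (4.85 ± 0.27, adjusted p = 0.00106). In Treg cells, it was 49.1-fold higher than in naïve T cells (5.62 ± 0.27, adjusted p = 0.00128). These sizes depended on the processing, with log2 differences of 3.65 and 4.86 after normexp background correction and 3.58 and 4.21 for the mean of all Socs2 probes, all of them called. That mean includes a probe that was not above background on any array. The TFH minus naïve T difference was -0.80 ± 0.27 with a 95% interval from -1.49 to -0.11 and was not called (adjusted p = 0.0633). It was called under 7 of 18 alternatives, among them without TFH at d25 (-1.16, adjusted p = 0.0339) and without Treg at either day (-0.80, adjusted p = 0.0437).

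Of the other 3 Socs2 probes, 1 was above background on all 8 arrays, 1 on 7, and 1 on none. The first, at chr10:94875066-94875125, gave -1.46 from Treg to TFR and 5.13 between TFR and TFH cells. The other, at chr10:94875468-94875527, gave -1.66 and 4.35, and all 4 of these values were called in a fit over all probes. The last, at chr10:94848005-94848064, gave no level for any cell type.

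**Figure D2:**
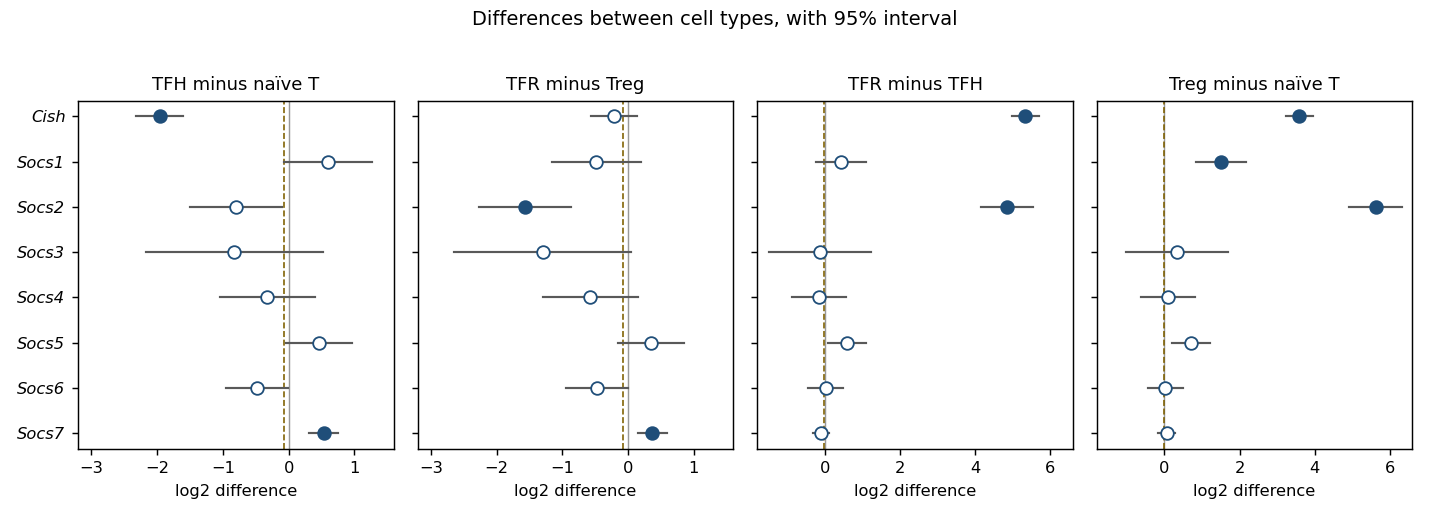
Log2 difference of each member between cell types (points) with its 95% interval (lines). Filled points passed an adjusted p of 0.05, and the dashed line is the median of all genes tested. Cish is lowest from naïve T to TFH cells (-1.96) and Socs2 from Treg to TFR cells (-1.57), whereas both lie far above 0 in TFR against TFH cells (5.33 and 4.85).

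Socs1 was highest in Treg cells at both days. SOCS1 is an inhibitor of JAK kinases and a main restraint on interferon-γ and IL2 family signals in T cells. At d12, the Socs1 level was 12383 RU in naïve T, 26214 RU in TFH, 35595 RU in Treg, and 27666 RU in TFR cells (chr16:10783951-10784010). At d25, it was 13219 RU in naïve T, 14354 RU in TFH, 37152 RU in Treg, and 24489 RU in TFR cells. The Treg arrays were the highest and the naïve T arrays the lowest at both days, whereas TFH cells matched TFR cells at d12 and naïve T cells at d25.

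Socs1 was 2.84-fold higher in Treg than in naïve T cells (1.51 ± 0.26, adjusted p = 0.0309) and 2.03-fold higher in TFR than in naïve T cells (1.02 ± 0.26, adjusted p = 0.0259). The latter comparison called 5 of 8 members, all higher, against 53% of all genes in either direction and 23.3% higher. Both calls were lost when a naïve T array or an array of the other cell type was left out. Treg minus naïve T then gave 1.30 and 1.72 without naïve T at d12 and d25 (adjusted p = 0.166 and 0.0936) and 1.70 and 1.32 without Treg at d12 and d25 (0.118 and 0.188). It was also lost without either TFR array, at an unchanged 1.51 (adjusted p = 0.0909), without the filter on dim probes (0.153), and with slide as a block (1.34, 0.154). TFR minus naïve T gave 0.81 and 1.24 without naïve T at d12 and d25 (adjusted p = 0.140 and 0.0570) and 1.06 and 0.99 without TFR at d12 and d25 (0.116 and 0.130). It was also lost without the filter on dim probes (adjusted p = 0.118) and with slide as a block (0.86, 0.115). The differences between neighbors in the order Treg, TFR, TFH, and naïve T were not called (TFR minus Treg -0.48, TFR minus TFH 0.42, TFH minus naïve T 0.60).

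Socs3 had the largest mean difference between the days of the 8 members, which was not called. SOCS3 limits STAT3 signals from gp130 receptors such as those of IL6 and IL27. At d12, the Socs3 level was 24271 RU in naïve T, 27187 RU in TFH, 31113 RU in Treg, and 14823 RU in TFR cells (chr11:117827480-117827539). At d25, it was 14346 RU in naïve T, 4061 RU in TFH, 17822 RU in Treg, and 6207 RU in TFR cells. Each cell type was lower at d25 than at d12, and TFH cells moved from the second highest to the lowest position.

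The Socs3 change from d12 to d25 was -0.76 in naïve T, -2.74 in TFH, -0.80 in Treg, and -1.26 in TFR cells. In TFH cells, 0.469% of all genes tested had a larger absolute change between the days, and in naïve T cells 6.26%. The mean over cell types was -1.39 ± 0.37 with an adjusted p of 0.107 (unadjusted p = 0.0134), and thus not called. None of the 8 members was called between the days by limma, where 0.0888% of all genes (14 of 15767) were, and 3 members and 4532 genes had an unadjusted p below 0.05. Besides Socs3, these were Socs2 (0.56 ± 0.19) and Socs5 (0.40 ± 0.14), both with positive values. Day and slide changed together and cannot be told apart. In TFH cells, sorted as B220-, the B cell sum was 8171 RU at d12 and 17676 RU at d25, and its part in the change of Socs3 was not tested.

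**Figure D3:**
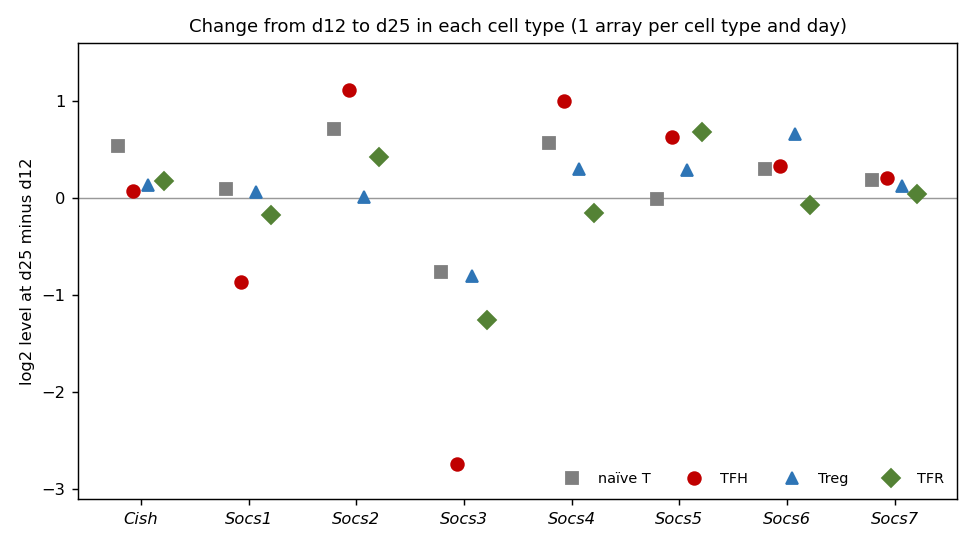
Change of each member from d12 to d25 on the log2 scale in each cell type, with 1 array per cell type and day. Socs3 is below 0 in all 4 cell types and lowest in TFH cells (-2.74), whereas the 4 values of Cish and of Socs7 lie between 0.04 and 0.53.

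Among cell types, no difference of Socs3 was called. It was lower in TFR than in Treg cells at both days (-1.07 at d12, -1.52 at d25), with a mean of -1.30 ± 0.52 (adjusted p = 0.108). Without either TFH array, the same value passed the threshold (adjusted p = 0.0103). TFH minus naïve T was 0.16 at d12 and -1.82 at d25, and without TFH at d12 the difference was called (-1.73, adjusted p = 0.0101).

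Socs7 differed little but evenly. SOCS7 has been linked to insulin signaling. At d12, the Socs7 level was 3613 RU in naïve T, 5181 RU in TFH, 3849 RU in Treg, and 5104 RU in TFR cells (chr11:97259763-97259822). At d25, it was 4096 RU in naïve T, 5967 RU in TFH, 4192 RU in Treg, and 5264 RU in TFR cells. All 4 follicular arrays were above all 4 arrays of the progenitors.

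Socs7 rose 1.45-fold from naïve T to TFH cells (0.53 ± 0.09, adjusted p = 0.00784) and 1.29-fold from Treg to TFR cells (0.37 ± 0.09, adjusted p = 0.0278). It was the only member called in both steps, and the 2 changes differed by -0.16 ± 0.12 (adjusted p = 0.475). Without naïve T at d12, the rise to TFH cells was not called (0.50, adjusted p = 0.0587). The rise to TFR cells was not called without either naïve T array (0.37, adjusted p = 0.0580), without Treg at d12 or d25 (0.38 and 0.36, adjusted p = 0.126 and 0.134), or without TFR at d12 or d25 (0.31 and 0.43, adjusted p = 0.157 and 0.0861). It was also not called in a model with no day term (adjusted p = 0.0852).

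Socs5 was lowest in naïve T cells at both days. SOCS5 has been described to interfere with IL4 receptor signals. At d12, the Socs5 level was 976 RU in naïve T, 1075 RU in TFH, 1442 RU in Treg, and 1594 RU in TFR cells (chr17:87536500-87536559). At d25, it was 969 RU in naïve T, 1658 RU in TFH, 1762 RU in Treg, and 2559 RU in TFR cells. The same order of cell types was seen at both days. TFR cells were 2.08-fold above naïve T cells (1.05 ± 0.19, adjusted p = 0.0101), and this call was lost without TFR at d25 (0.86, adjusted p = 0.0703), without the filter on dim probes (0.0575), and with slide as a block (0.97, 0.0555). Neighbors in the order were not called (TFH minus naïve T 0.46, TFH minus Treg -0.26, TFR minus Treg 0.34).

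Socs4 and Socs6 showed no called difference. The Socs4 level ranged from 371 RU in TFH cells at d12 to 799 RU in naïve T cells at d25 (chr14:47911161-47911220), and its TFR minus Treg difference was -0.57 ± 0.28 (adjusted p = 0.163). The Socs6 level ranged from 135 RU in TFH cells at d12 to 269 RU in Treg cells at d25, and its differences from progenitor to follicular cells were -0.47 ± 0.18 (adjusted p = 0.0886) and -0.48 ± 0.18 (adjusted p = 0.0954). Of 3 further Socs6 probes, 1 was above background on 3 arrays and the others on none. For Socs4, the 95% interval from naïve T to TFH cells ran from -1.04 to 0.40.

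Over all 4 cell types, 5 of 8 members (Cish, Socs1, Socs2, Socs5, and Socs7) passed the moderated F test, against 57.6% of all genes. The call of Socs1 was lost when any naïve T, Treg, or TFR array was left out (adjusted p = 0.0575 to 0.0926), that of Socs5 when any Treg or TFR array or naïve T at d25 was (0.0649 to 0.104), and that of Socs7 without naïve T at d12 (0.0542). Without the filter on dim probes and with slide as a block, the calls of Socs1 (adjusted p = 0.130 and 0.107) and Socs5 (0.140 and 0.127) were lost as well, and that of Socs5 also with no day term (0.103). The median difference of the 8 members was -0.40 from naïve T to TFH and -0.48 from Treg to TFR cells, where the medians of all genes were -0.07 and -0.08. It was 0.22 for TFR against TFH cells and 0.52 for Treg against naïve T cells (all genes -0.03 and -0.01).

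The profiles of the members over the 8 arrays were compared with each other. For genes whose Foxp3+ and Foxp3- arrays lie far apart, such as Cish and Socs2, r mostly reflects that gap. Socs3, Socs4, Socs6, and Socs7 showed no called difference between Treg and naïve T or between TFR and TFH cells. All r are given as a description. Cish and Socs2 ran in parallel (Pearson r = 0.96), as did Socs4 and Socs6 (0.83), whereas Socs3 and Socs7 ran in opposite directions (-0.72). Of 5870 genes above background on all arrays with a range of at least 1 on the log2 scale, those most similar to Cish were Ikzf4 (r = 0.993), Tns1 (0.992), and Foxp3 (0.990). Most similar to Socs2 were Hopx (0.992), Gbp3 (0.991), and Fam109b (0.986). Socs1 was closest to Disp1 (0.981), Socs5 to Nudt4 (0.963), and Socs7 to Lamp2 (0.988). With Spearman's rho, other genes were listed first for all 5, and the first 3 by either measure shared 1 gene (Pgpep1l, for Socs1). For Cish, Socs2, and Socs7, the first 3 by rho all tied at 1, and ties were listed by gene name. The genes listed and the overlap thus depend in part on names, and Lamp2 ranks the arrays as Socs7 does.

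Receptors stand at the head of the pathway. For these and the other pathway genes below, single calls were not checked under the alternative settings. Of 18 cytokine receptor genes tested of 19 listed, 5 rose and 8 fell from naïve T to TFH cells, and 3 rose and 10 fell from Treg to TFR cells. Of all genes tested, 46.5% and 39.6% were called in these steps. Il2ra, the α chain that gives the IL2 receptor its high affinity, was 206 RU in naïve T, 227 RU in TFH, 25948 RU in Treg, and 14508 RU in TFR cells at d12. The d25 levels were 246, 250, 28678, and 20071 RU in the same order, so that the gene was high in Foxp3+ and low in Foxp3- cells. It fell from Treg to TFR cells (-0.68, adjusted p = 0.0113) and was 71.7-fold higher in TFR than in TFH cells. The paper, with more sorted samples, describes a robust fall of Il2ra in TFR cells from Peyer's Patches but not in those from pLN. The r of Il2ra was 0.951 with Cish and 0.979 with Socs2. Il2rb, the chain shared with the IL15 receptor, rose 7.08-fold from naïve T to TFH cells (adjusted p = 0.000262), the step at which Cish fell. Il2rg, the common γ chain, fell in both steps (-0.95 and -0.72).

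**Figure D4:**
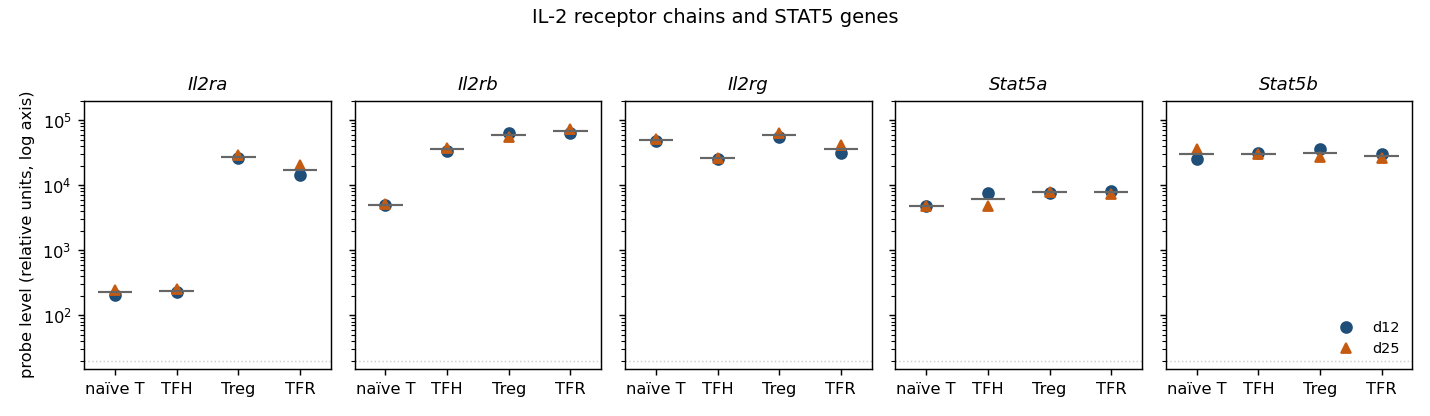
Probe level in RU (log axis) of the 3 IL2 receptor chains and both STAT5 genes by cell type, with circles for d12, triangles for d25, gray bars for the geometric mean, and the floor of 20 dotted. Il2ra is high in Treg and TFR cells only (14508 to 28678 RU), Il2rb is high in TFH cells as well, and the STAT5 genes differ little.

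Among the other receptors, Il4ra fell in both steps (-4.45 from naïve T to TFH, -2.30 from Treg to TFR cells). Il7r fell by 4.73 on the log2 scale from naïve T to TFH cells. Ifngr2 fell by 1.85 from Treg to TFR cells. Il9r was not well above background in naïve T cells and was at least 18.5-fold higher in TFH cells (adjusted p = 0.000178), and it rose 2.82-fold from Treg to TFR cells.

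Kinases and STATs act next in the pathway. Jak2 rose from naïve T to TFH and from Treg to TFR cells (1.63 and 0.64 on the log2 scale), and Jak1 fell by 0.52 on the log2 scale in the latter step. These were the only calls among 4 JAK genes in these steps (all genes 46.5% and 39.6%), and Jak3 gave 0.49 (adjusted p = 0.0512) and 0.23. Among the STAT genes, Stat4 rose from naïve T to TFH cells (1.47), whereas Stat2 and Stat6 fell in this step (-0.49 and -0.37) and from Treg to TFR cells (-0.37 and -0.38). Stat5a, Stat5b, and Stat3 were not called in either step. Their values from naïve T to TFH cells were 0.35, 0.03, and 0.16, and from Treg to TFR cells -0.01, -0.14, and -0.15.

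STAT5 has further known targets, and 11 of these were tested, including Il2ra. Treg cells exceeded naïve T cells in 5 and were lower in 1, where 9.89% of all genes were called. From naïve T to TFH cells, 1 rose and 5 fell (all genes 46.5%), led by Myc (-2.69), Bcl2 (-1.61), and Osm (-1.42). From Treg to TFR cells, 2 rose and 6 fell (all genes 39.6%), with Bcl2 (-2.51), Osm (-1.77), and Prdm1 (1.38) showing the largest changes. Between the follicular cells, 6 were higher and 1 lower in TFR cells (all genes 22.2%). MYC drives growth, BCL2 protects from apoptosis, and Prdm1 encodes BLIMP1, an antagonist of BCL6.

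The partners of the SOCS box form the ligase itself. Of 6 genes of the ligase, Elob (Elongin B) rose and Rnf7 fell from naïve T to TFH cells (0.65 and -0.36), and none was called from Treg to TFR cells by limma (all genes 46.5% and 39.6% called). In the latter step, 2 of the 6 had an unadjusted p below 0.05 by limma, as did 7996 of all 15767 genes. Eloc (0.08 and 0.08) and Cul5 (0.04 and -0.12) were not called in either step. Of 24 other genes with a SOCS box, 12 were tested. In TFH against naïve T cells 4 rose and 2 fell, and in TFR against Treg cells likewise 4 rose and 2 fell, shares near the 46.5% and 39.6% of all genes. Asb2, whose product directs filamin degradation, was not well above background in naïve T cells. It was at least 186-fold higher in TFH cells and rose 17.8-fold from Treg to TFR cells. Spsb2 rose in both steps (2.02 and 1.85), as did Wsb2 (0.91 and 0.67), and Asb13 fell from Treg to TFR cells (-0.73).

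Other inhibitors act beside the SOCS proteins. Of 10 phosphatases, PIAS proteins, and adaptors tested of 11 listed, 3 rose and 4 fell from naïve T to TFH cells, and 1 rose and 3 fell from Treg to TFR cells, where 46.5% and 39.6% of all genes were called. Ptpn11, which encodes the phosphatase SHP2, rose 11.4-fold and 2.51-fold in these steps. Usp18, which restrains type I interferon receptors, fell in both (-2.49 and -1.76). Ptpn1 rose from naïve T to TFH cells (0.74), and Ptprc, which encodes CD45, fell from Treg to TFR cells (-0.75).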

How the data were processed

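Cell type and day of the 8 arrays come from the labels, and day 12 and day 25 served as the 2 arrays of a cell type. The authors extracted spots with Agilent Feature Extraction 10.7.3.1 (1 color) and deposited spot intensities with quality flags and a normalized intensity table. For this report, flagged spots, spots outside 1.42 times the interquartile range of the 4 spots of a probe, and spots with a pixel coefficient of variation above 0.5 were excluded (85.1% to 87.6% kept). Geometric means of spots were quantile normalized, scaled to a 75th percentile of 1500, floored at 20, and log2 transformed. The result correlated with the authors' deposited table with r = 0.9994 on each array. Depth has no equivalent on arrays, and 2 arrays per cell type limit the precision.

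A probe was called well above background when over 50% of its spots kept carried that flag. The brightest probe by mean log2 level stood for its gene. Genes entered the tests if this probe was above background at both days in 1 cell type or more. Cell types were compared with limma 3.58.1 (R 4.3.3), in an additive model of cell type plus day fitted by lmFit and eBayes, which left 3 residual and 1.90 prior degrees of freedom. The script was tested on simulated data. The labels number no replicates, so that days are paired by the day term alone. Nothing states that the pools came from separate experiments. The p-values therefore measure only the spread between these arrays that remains after the day term. The paper names more sorted samples per cell type at both days than the arrays used here, and the others were not analysed. Where a cell type was not well above background, a lower bound was taken against the lowest level above background on each array or the level itself, whichever was higher.

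Members and gene lists were chosen with earlier results of these data known. Named were all members, the IL2 receptor chains, Stat3, Stat5a, Stat5b, Jak1, Jak3, Elob, Eloc, Cul5, and Rnf7 whatever their values, and up to 3 genes per pathway list with the largest called change from naïve T to TFH and from Treg to TFR cells. A gene that this rule would name is not reported here. The comparisons of TFR with naïve T and of TFH with Treg cells were added after the data were seen. Genes with a similar profile were the first 3 by Pearson's r. Alternatives were another scaling, the authors' table, normexp background correction, all spots, no or a stricter filter on dim probes, the mean of all probes, no day term, slide as a block, another prior, and each array left out. They were read for the members and for counts of genes called, not for single genes of the pathway lists.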

Additional observations from a re-analysis of the deposited data

Results flagged for a closer look

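The change of Cish from Treg to TFR cells differed from its change from naïve T to TFH cells by 1.75 on the log2 scale in a test of the difference itself (limma, adjusted p = 0.0129). The call was lost when any Treg or TFR array was left out (adjusted p = 0.0664 to 0.0841). The direction was the same at d12 and d25. The cell types of each step shared a slide at both days.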

How the results depend on the processing

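The calls of Cish from naïve T to TFH cells, in TFR against TFH cells, and in Treg against naïve T cells, and those of Socs2 in the last 2 of these, held under all 18 alternatives. Without the filter on dim probes, 3843 genes and 1 member were called from Treg to TFR cells (main 6247 and 2), 1653 genes for TFR against TFH (3501), 676 for Treg against naïve T (1559), 409 genes and 0 members for the difference of changes (1349 and 1), 0 genes between days (14), and 5866 genes and 3 members over all cell types (9088 and 5). With no day term, that is without the block that pairs the arrays of a day, 1 member was called from Treg to TFR cells, 2212 genes for TFR against TFH, 997 for Treg against naïve T, and 803 for the difference of changes. With slide as the block, the last 3 counts were 1373, 533, and 690, and 3 members were called over all cell types. With normexp, 2 members (Cish and Socs2) were called for the difference of changes. Between days, 842 genes were called with normexp, 26 with 75th percentile scaling alone, 6 with all spots, 3 with the mean of all probes, 795 with the stricter filter, and 1229 with another prior. The causes were not tested.

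Leaving out 1 array at a time gave 4304 to 6447 genes and 1 to 4 members from naïve T to TFH, 2508 to 6728 and 0 to 4 from Treg to TFR, 948 to 2899 genes for TFR against TFH, 417 to 1842 for Treg against naïve T, 295 to 1091 and 0 to 2 members for the difference of changes, 0 genes between days, and 5639 to 8741 and 3 to 6 members over all cell types.

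The sign turned only for differences of Socs1, Socs3, Socs4, Socs5, and Socs6 that were not called. With slide as the block, TFR minus TFH was 0.19 for Socs4 and Treg minus naïve T was -0.025 for Socs3. The difference of changes for Socs6 was 0.0031 with all spots and 0.10 with the mean of all probes. With 1 array left out, TFH minus naïve T ran from -1.73 to 0.073 for Socs3 (without TFH at d12 and at d25) and from -0.70 to 0.061 for Socs4 (without TFH at d25 and at d12). TFR minus TFH ran from -0.0069 to 0.86 for Socs1, from -1.03 to 0.77 for Socs3, from -0.55 to 0.23 for Socs4, and from -0.23 to 0.27 for Socs6. Treg minus naïve T ran from -0.086 to 0.76 for Socs3, from -0.00060 to 0.18 for Socs4, and from -0.21 to 0.26 for Socs6. The difference of changes ran from -1.37 to 0.43 for Socs3, from -0.64 to 0.14 for Socs4, from -0.39 to 0.16 for Socs5, and from -0.25 to 0.25 for Socs6.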
